A study of Mus musculus with 9 samples.

Results

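Peaks of open chromatin that lay nearest to a microRNA (miRNA) or small nucleolar RNA (snoRNA) gene were followed across 9 Omni-ATAC-seq libraries of mouse brain endothelial cells (ECs). A peak was a member when the gene name given to it by the authors' annotation began with Mir and a digit, Mirlet7, Snord or Snora, so the name reports the nearest annotated start and not a tie of the peak to that gene. Of 253457 peaks in the 9 lists, 8041 (3.17%) were members. They carried 773 names and fell into 3640 of 92495 regions once overlapping peaks were joined. Of these 3640 regions, 29 also held a peak with another gene name. miRNA genes gave 727 names and 7731 peaks, 26 box C/D snoRNAs (Snord) gave 179 peaks, 15 box H/ACA snoRNAs (Snora) gave 92 peaks, and 5 miRNA host genes gave 39 peaks.

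The groups were WT Cre at young (n = 2) and old age (n = 2), and EC-K4KO at young (n = 3) and old age (n = 2). Per the labels the genotypes are CdH5CRE and ECK4KO. Per the study's methods all mice were C57BL/6J and carried a tamoxifen-inducible Cre driven by the endothelial Cdh5 promoter, and in EC-K4KO mice this Cre removed the transcription factor KLF4 from ECs after tamoxifen was given to adult mice. The labels give age only as young or old. The libraries were made from nuclei of purified brain ECs. Library names carry 1 prefix for all young and another for all old libraries, so age and prefix cannot be told apart. Whether same-group libraries came from separate mice is not given in the labels, so p-values measure the spread between these libraries.

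The lists were of very unequal length, from 6157 and 9598 peaks in young WT Cre, through 23848 to 27992 in young EC-K4KO, to between 32555 and 45026 in the old libraries. Read depth is not known from peak lists. Of 10 endothelial marker genes, 5 to 9 had a promoter peak by name in each library, Cldn5, Tie1 and Flt1 in all 9 libraries, and Emcn in none. By the same count no marker of microglia, oligodendrocytes or astrocytes (4 genes each) had one in any library. Counting any peak region over the gene start, 6 of the 10 endothelial markers were present in all 9 libraries. All 10, Emcn among them, were present in young EC-K4KO replicate 3 and in every old library. By this count 1 astrocyte marker was present in young EC-K4KO replicate 3 and in both old EC-K4KO libraries, and 2 neuron markers in both old EC-K4KO libraries. By name, of 4 neuron markers, Syt1 and Tubb3 had a peak in 2 libraries each, and of 4 mural markers Kcnj8 in 2 and Pdgfrb and Acta2 in 1 each, mostly old EC-K4KO libraries, and their part in the results was not tested. The Klf4 promoter had a peak in all 9 libraries, which does not measure the deletion.

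miRNAs are short RNAs cut from a hairpin by Drosha and Dicer and loaded into Argonaute proteins, where bases 2 to 8, the seed, pair with target mRNAs. Many are cut from introns of a host gene or from long primary transcripts that start far upstream of the hairpin. Box C/D and box H/ACA snoRNAs guide 2′-O-methylation and pseudouridylation of ribosomal RNA, and most are spliced out of introns of host genes. In endothelium, miR-126 from an intron of Egfl7 and the miR-23a, miR-27a and miR-24 cluster are well known.

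The mature miRNAs of the loci that the results turn on are shown with the seed in capitals, 5′ to 3′, as RefSeq gives them for GRCm38.p6. The first set shows the loci with the strongest shared regions and their seed mates.
miR-22-3p: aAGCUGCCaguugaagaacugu
miR-30a-5p: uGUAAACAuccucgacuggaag
let-7a-5p: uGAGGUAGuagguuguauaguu
let-7e-5p: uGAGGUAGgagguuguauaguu
miR-26a-5p: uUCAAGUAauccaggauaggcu
miR-26b-5p: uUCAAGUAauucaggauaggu
miR-5627-5p: aGAGGGUGcgccgggcccugcg
let-7a and let-7e shared a seed and 21 of 22 positions, differing at U9G. miR-26a and miR-26b shared a seed and 19 of 21 positions, differing at C11U and C21U. Positions are counted from 1 at the 5′ end.

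The second set shows the endothelial and activity-linked loci described below, where miR-132 and miR-212 come from 1 locus and share a seed.
miR-23a-3p: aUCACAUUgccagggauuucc
miR-27a-3p: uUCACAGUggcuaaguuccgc
miR-24-3p: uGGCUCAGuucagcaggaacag
miR-99b-5p: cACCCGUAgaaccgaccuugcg
miR-125a-5p: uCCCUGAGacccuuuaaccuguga
miR-126a-3p: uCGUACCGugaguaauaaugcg
miR-132-3p: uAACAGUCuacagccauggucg
miR-212-3p: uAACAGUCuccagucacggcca
miR-34b-5p: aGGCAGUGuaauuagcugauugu
miR-132 and miR-212 were identical at 17 of 22 positions.

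Most member peaks lay far from the small RNA that named them. The median distance to the start was 26520 bp, against 14202 bp over all peaks, and 7.19% lay within 1000 bp, against 30.9% of all peaks. Promoter-TSS was the class of 5.80% of member peaks and of 24.5% of all peaks, while introns held 46.4% against 33.2% and intergenic sequence 40.3% against 34.1%. Member promoter peaks numbered 24 and 22 in young WT Cre, 46, 55 and 55 in young EC-K4KO, 65 and 62 in old WT Cre, and 74 and 63 in old EC-K4KO, but their share was 20.5% and 11.5% in young WT Cre and between 4.15% and 7.30% in the other 7 libraries. Among the 6157 strongest peaks of each list the promoter share of members was between 15.1% and 24.5%, and that of all peaks between 55.4% and 64.6%.

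**Figure D1:**
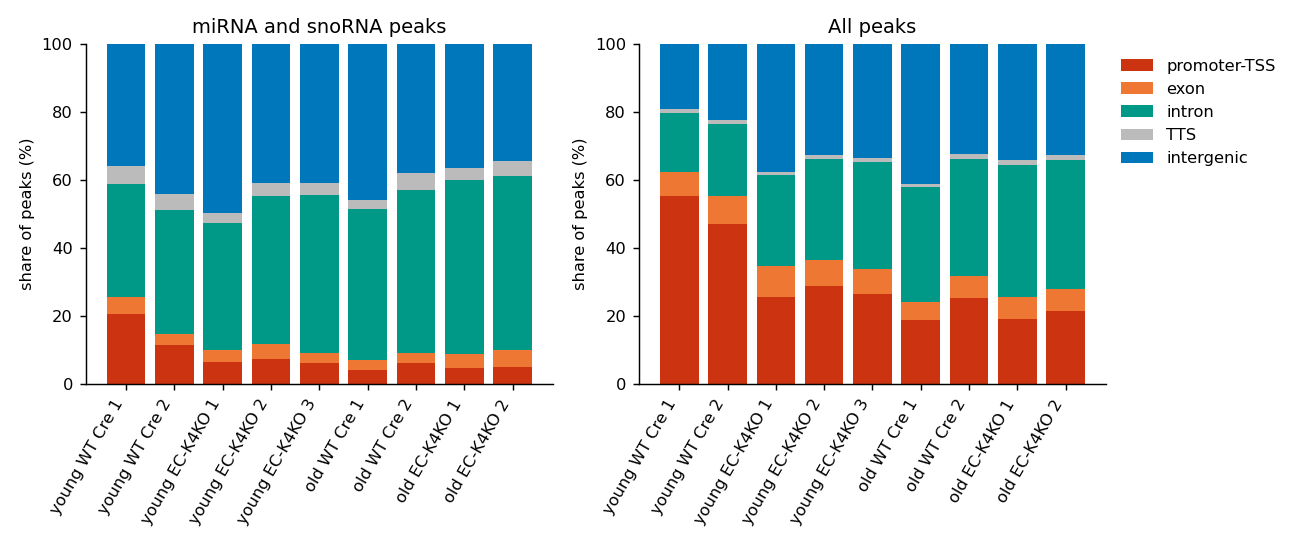
Share of peaks (%) by annotation class in each library, for miRNA and snoRNA peaks on the left and all peaks on the right. Promoter-TSS makes up 4.15% to 20.5% of member peaks and 18.8% to 55.4% of all peaks.

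Promoter peaks with a small RNA name often sat on the promoter of a longer gene. Of 466 such peaks in 123 regions, 295 were annotated to the small RNA's own promoter and 157 to that of a gene outside the family. Of 1005 RefSeq miRNA hairpins, 91 (9.05%) lay under a peak in at least 1 library, 35 in at least 7 and 12 in all 9. Of the 91, 57 (62.6%) lay within 1000 bp of the start of a long gene of the GENCODE M21 annotation, against 82 of the 914 hairpins with no peak (8.97%). The hairpins covered in all 9 libraries included Mir5627 at the Dnajb9 promoter, Mir484 at the Marf1 promoter, Mir207 inside Dnaja1, Mir8114 beside Glul, and the neighbours Mir2861 and Mir3960 inside Cdk9. No peak covered the hairpins Mir126a, Mir23a, Mir21a, Mir26b or Mirlet7a-1 in any library.

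Member peaks were weaker than the rest of their lists. Ranked by −log10 p, the median member peak stood at between the 59.5th and 65.4th percentile of its list, where 0 is the strongest and 50 the middle. Percentiles are of each library's own list, so here and below they also depend on its length. By the number of libraries, 2343 member regions (64.4%, against 57.3% of all regions) had a peak in 1 library and 81 (2.23%) had a peak in all 9, where 5.27% of all regions did. Of these 81, 21 (25.9%) lay over the start of a protein-coding gene, against 75.0% of the 4872 regions open in all 9 libraries. The 300 bases around the centre held the GC box GGGCGG in 53.1% of the 81 and in 64.7% of the 4872, and the CACCC box CCACACCC, on either strand, in 4.94% and 4.04%.

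The strongest shared regions were compared by their place among those 4872 regions, ranked in each library from 1, the strongest, which does not depend on list length. The promoter of Mir22hg, host of miR-22 (chr11:75460490-75461739, GRCm38), was at place 62 and 91 in young WT Cre, 78, 509 and 615 in young EC-K4KO, 141 and 125 in old WT Cre, and 111 and 142 in old EC-K4KO. Young EC-K4KO replicates 2 and 3 stood below all other libraries, and replicate 1 among them. By the two-sided exact permutation test the difference by genotype had p = 0.283 and by age p = 0.767.

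The 250 bases before and 50 after the RefSeq start of Mir22hg (chr11:75461289-75461588, plus strand) are shown because this region had the best mean percentile of the 81, with GC boxes (GGGCGG) and a CACCC box in capitals.
Mir22hg promoter: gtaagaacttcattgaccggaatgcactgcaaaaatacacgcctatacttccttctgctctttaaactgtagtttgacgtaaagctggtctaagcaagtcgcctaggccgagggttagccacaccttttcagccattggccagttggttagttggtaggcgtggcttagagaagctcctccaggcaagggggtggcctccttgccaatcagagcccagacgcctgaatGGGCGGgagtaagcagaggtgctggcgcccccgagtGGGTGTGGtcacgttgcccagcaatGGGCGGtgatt
A CACCC box on either strand occurs in 3.56% and a GC box in 35.7% of all 32851 RefSeq promoter windows of this length.

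The region named for Mir30d (chr15:68363069-68363677, annotated intergenic, -22118 bp from the miRNA) was at place 1024 and 223 in young WT Cre, 198, 107 and 365 in young EC-K4KO, 66 and 87 in old WT Cre and 61 and 71 in old EC-K4KO. Every old library was higher in the ranking than every young library. It lies over the start of the gene Gm20732. The limma difference, old minus young, was -2.07 ± 0.52 (SE) on the log2 place scale (adjusted p = 0.0339), and the exact permutation test on list rank gave p = 0.0333 (adjusted p = 0.154). Its central 300 bases (chr15:68363224-68363523, plus strand) are shown for the CRE TGACGTCA, the E-box CACGTG and the GC boxes in capitals.
Mir30d region: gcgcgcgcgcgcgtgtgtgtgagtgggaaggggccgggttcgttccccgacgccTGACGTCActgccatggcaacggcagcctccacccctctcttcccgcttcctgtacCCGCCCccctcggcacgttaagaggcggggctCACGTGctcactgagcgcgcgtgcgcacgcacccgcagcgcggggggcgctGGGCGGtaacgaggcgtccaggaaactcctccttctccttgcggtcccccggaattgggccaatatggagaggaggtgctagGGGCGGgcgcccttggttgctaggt

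The region of Mir5627, at the promoter of the stress chaperone gene Dnajb9, was at place 78 and 550 in young WT Cre, 346, 170 and 300 in young EC-K4KO, 321 and 339 in old WT Cre, and 354 and 322 in old EC-K4KO, and its groups overlapped. Its peak was named Mir5627 in 1 of the 9 libraries and Dnajb9 in the others. A region named for Mirlet7a-1 (chr13:48545687-48546861, -8077 bp) was at place 640 and 390 in young WT Cre, 414, 218 and 282 in young EC-K4KO, 355 and 411 in old WT Cre, and 661 and 280 in old EC-K4KO. These groups overlapped (by age p = 0.850, by genotype p = 0.467, exact permutation test). The region of Mir26b, whose hairpin lies within the gene Ctdsp1, was at 509 and 544 in young WT Cre, 760, 776 and 1262 in young EC-K4KO, 901 and 730 in old WT Cre and 1492 and 1356 in old EC-K4KO. EC-K4KO libraries stood lower than WT Cre libraries of the same age, with a rank difference of 0.82 log2 units and the smallest p the test allows (0.0167, adjusted p = 0.387, exact permutation test), but the direction turned when percentiles of the whole lists were used (-0.12). A region -15851 bp from Mir30a was at 553 and 353 in young WT Cre, 812, 1315 and 2411 in young EC-K4KO, 260 and 320 in old WT Cre, and 1599 and 215 in old EC-K4KO, and the old EC-K4KO libraries lay on either side of old WT Cre.

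**Figure D2:**
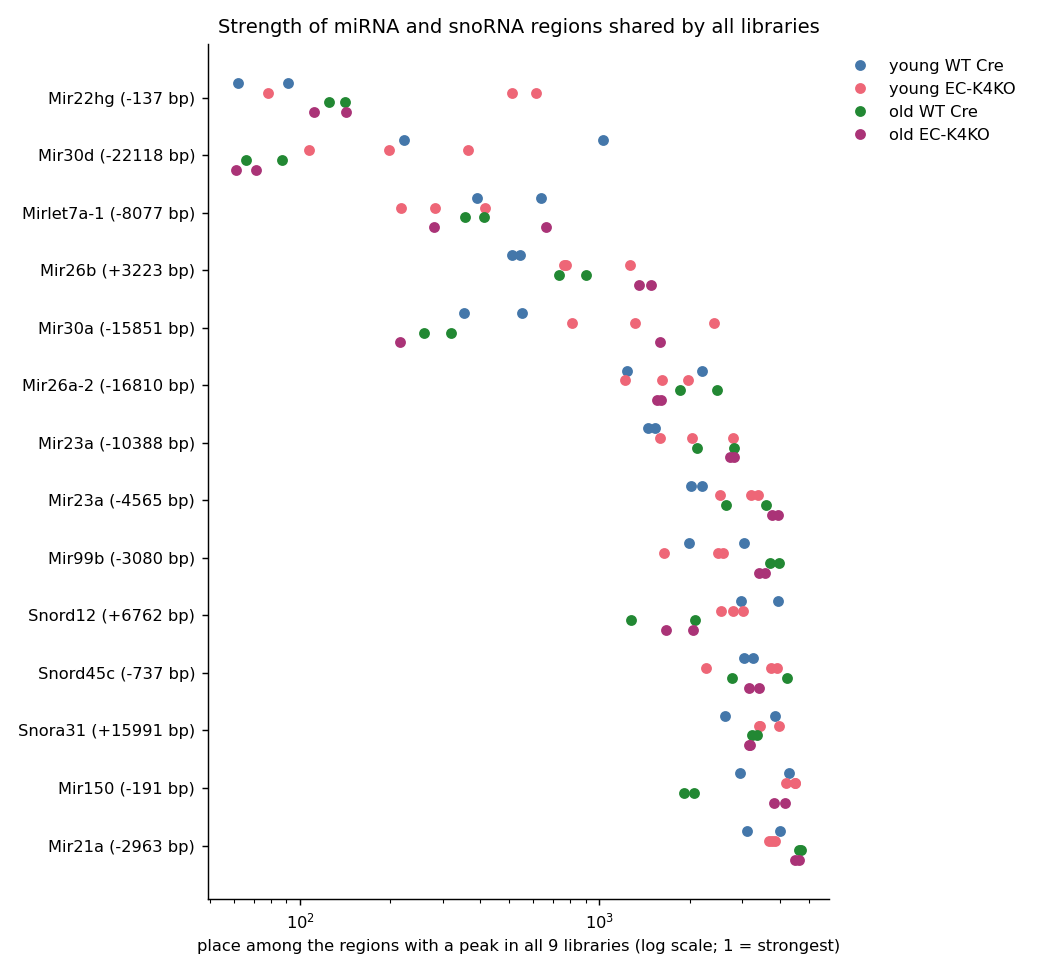
Place among the regions open in all 9 libraries (x axis, log scale, 1 the strongest) for miRNA and snoRNA regions, 1 point per library, coloured by group, with the distance to the small RNA start in brackets. Mir30d is at 61 to 87 in the old libraries and at 107 to 1024 in the young ones.

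Of 34 endothelial miRNAs, 20 were named by a peak in at least 1 library, with 5 and 8 named in young WT Cre, 8, 17 and 16 in young EC-K4KO, 16 and 17 in old WT Cre and 17 in both old EC-K4KO libraries. They had 64 regions, 5 of them in all 9 libraries. The miR-23a, miR-27a and miR-24-2 cluster had 4 regions, all before the cluster. The region at -10388 bp was at place 1458 and 1536 in young WT Cre, 1590, 2035 and 2788 in young EC-K4KO, 2114 and 2808 in old WT Cre, and 2821 and 2731 in old EC-K4KO. The region at -4565 bp was at 2209 and 2019, then 2524, 3197 and 3380, then 2657 and 3592, and 3775 and 3954, in the same order of groups. In both regions young WT Cre stood above every other library. Neither differed at an adjusted p under 0.05 in limma, by age (0.0795 and 0.0692) or by genotype (0.447 and 0.270). The region at -7556 bp (chr8:84200722-84201746) had no peak in young WT Cre, and was at percentile 17.7, 11.6 and 10.8 in young EC-K4KO, 36.1 and 60.8 in old WT Cre, and 21.4 and 36.3 in old EC-K4KO.

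The miR-99b, let-7e and miR-125a cluster had a region at -3080 bp (chr17:17826679-17828001) at place 3043 and 1993 in young WT Cre, 2492, 1638 and 2589 in young EC-K4KO, 3972 and 3715 in old WT Cre, and 3570 and 3420 in old EC-K4KO. Every old library stood lower, and limma gave a difference of 0.66 ± 0.18 (SE) with adjusted p = 0.0457. By the exact permutation test no region passed an adjusted p of 0.05 by age, since too few regions reached its smallest p for any to pass. The promoter of Mir150, a miRNA of lymphocytes that is also studied in endothelium, was at place 2944 and 4299 in young WT Cre, 4205, 4500 and 4487 in young EC-K4KO, 1919 and 2063 in old WT Cre, and 3817 and 4154 in old EC-K4KO. Old WT Cre stood above all other libraries. Its genotype difference on list rank, with all places beyond 6157 set equal, was 0.99 log2 units (p = 0.0167, the smallest possible, adjusted p = 0.387, exact permutation test). It was 0.16 with percentiles of the whole lists. In those percentiles the young libraries ran the other way, at 49.1 and 60.7 in WT Cre and 24.6, 29.0 and 25.5 in EC-K4KO. Mir210, the hypoxia miRNA, had a promoter peak in 7 libraries, without young WT Cre replicate 1 and young EC-K4KO replicate 1, at percentiles from 11.6 to 42.2. For miR-126 no peak was named Mir126a, and Mir126b named a broad region in Agpat2 that was absent in young WT Cre replicate 1 and stood between the 42.9th and 96.6th percentile in the other 8.

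Of 25 miRNAs linked to inflammation, stress and senescence, counting the host gene Mir22hg, 14 were named. They had 60 regions, 2 of them in all 9 libraries. Mir21a, which is raised in many inflamed tissues, had 7 regions, and the region at -2963 bp in an intron of Vmp1 was at place 3999 and 3107 in young WT Cre, 3860, 3678 and 3772 in young EC-K4KO, 4714 and 4626 in old WT Cre and 4645 and 4506 in old EC-K4KO. All 4 old libraries stood below all 5 young ones (p = 0.0167, adjusted p = 0.116, exact permutation test). The adjusted p by age in limma was 0.0733. The Mir34b and Mir34c promoter, known as a p53 target, had no peak in young WT Cre and a weak one in the other 7, at percentiles 34.4, 65.4 and 78.2 in young EC-K4KO, 59.7 and 84.2 in old WT Cre and 65.0 and 63.7 in old EC-K4KO. The nearest region to Mir146, a miRNA induced by NF-κB, was absent in young WT Cre replicate 1 and at percentiles 17.1 to 48.9 in the other 8.

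Of 16 neuron miRNAs 12 were named, with no region in all 9 libraries and a median peak at the 79.8th percentile. The strongest was the shared promoter of Mir212 and Mir132, absent in young WT Cre and at percentiles 24.5 to 41.7 in the other 7. Of 4 oligodendrocyte miRNAs 3 were named, by 23 peaks with a best percentile of 13.7 and a median of 43.3, where the 251 peaks of the endothelial list had a median of 48.5 and the 194 of the inflammation list 53.9. Of 8 muscle miRNAs 3 were named (22 peaks, median percentile 53.0), of 7 myeloid and blood miRNAs 1 (2 peaks, median 53.6), and of 6 KLF-linked miRNAs 3 (17 peaks, median 64.3). The part of other cells in these peaks was not tested. The imprinted small RNA clusters, which include the Snord115 and Snord116 arrays, gave 4 peaks in 4 regions from 3 of 16 names.

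The 41 named snoRNAs had 271 peaks in 114 regions, 61 of them in 1 library and 3 in all 9. Snord104 (chr11:106500698-106501567, -56 bp) had no peak in young WT Cre and was at percentile 25.1, 17.6 and 13.4 in young EC-K4KO, 3.99 and 3.79 in old WT Cre and 3.89 and 6.64 in old EC-K4KO. Every old library stood above every young EC-K4KO library (difference by age of -1.59 log2 rank units, p = 0.0167, adjusted p = 0.116, exact permutation test with absent peaks set just after place 6157). Its central 300 bases (chr11:106500983-106501282, plus strand) are shown, and hold none of the 6 motifs searched on both strands (the GC box, the CACCC box, the ETS motif CCGGAAG, the AP-1 motif TGANTCA, the E-box and the CRE).
Snord104 region: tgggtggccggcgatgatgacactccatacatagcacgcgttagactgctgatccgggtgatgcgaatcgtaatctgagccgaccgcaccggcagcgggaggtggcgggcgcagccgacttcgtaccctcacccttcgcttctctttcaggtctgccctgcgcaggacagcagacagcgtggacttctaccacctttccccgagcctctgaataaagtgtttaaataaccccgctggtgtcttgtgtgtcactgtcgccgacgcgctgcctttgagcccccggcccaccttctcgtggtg
A region 6762 bp after Snord12 was at place 2962 and 3945 in young WT Cre, 2804, 2547 and 3007 in young EC-K4KO, 2078 and 1271 in old WT Cre and 2048 and 1665 in old EC-K4KO. All 4 old libraries stood above all 5 young ones (limma -0.81 ± 0.19 (SE), adjusted p = 0.0292). Snord45c at the Rabggtb promoter and Snora31 overlapped across groups, by age at p = 0.483 and p = 0.917 (exact permutation test). Snord14c named 21 regions, at least 16094 bp away and at a median percentile of 80.6, with 5, 4 and 4 peaks in young EC-K4KO, 10 and 2 in old WT Cre, and none in young WT Cre or old EC-K4KO, and no region of it was shared by more than 2 libraries.

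The number of member peaks was lowest in the shortest lists. It was 117 and 191 in young WT Cre, 706, 753 and 881 in young EC-K4KO, 1566 and 1015 in old WT Cre, and 1545 and 1267 in old EC-K4KO. The share of the list was 1.95% ± 0.06 (SD, n = 2), 3.03% ± 0.10 (SD, n = 3), 3.34% ± 0.32 (SD, n = 2) and 3.34% ± 0.13 (SD, n = 2). Among the 6157 strongest peaks of each list it was 1.70% ± 0.29, 1.53% ± 0.05, 1.62% ± 0.03 and 1.46% ± 0.07, and the libraries of all groups then lay between 1.41% and 1.90%. The difference was -0.07 percentage points by age and -0.16 by genotype, and with 9 shares it is given as a description.

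**Figure D3:**
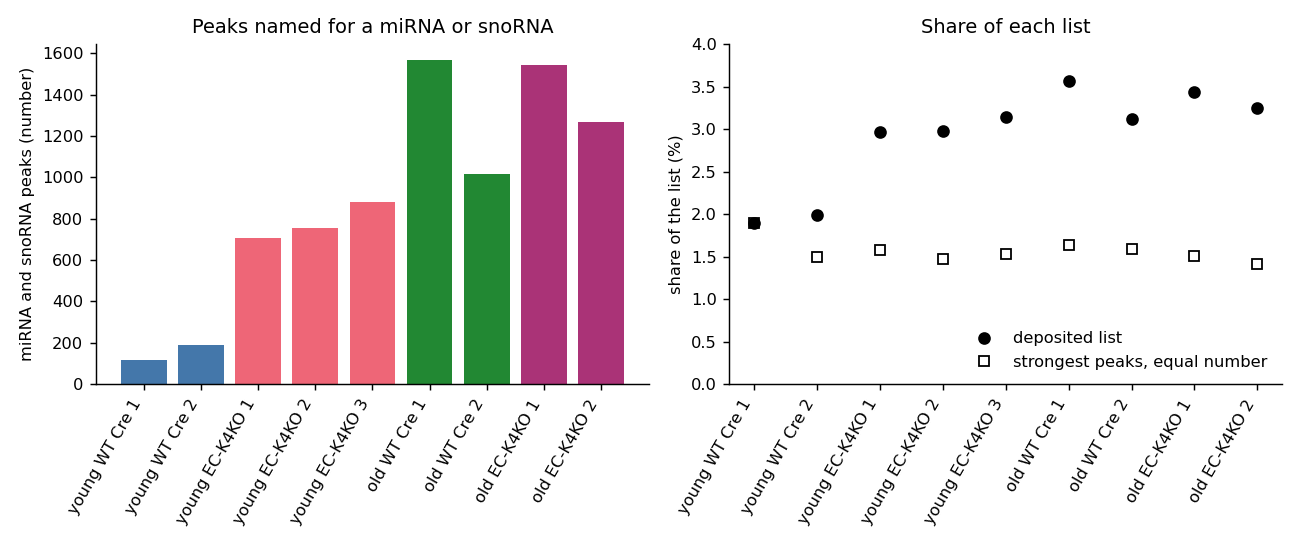
Number of miRNA and snoRNA peaks in each library (left) and their share of the list in % (right), over the deposited list (filled) and its 6157 strongest peaks (open). Counts run from 117 to 1566, and shares of the strongest peaks lie between 1.41% and 1.90%.

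All 3 other groups were compared with the same 2 young WT Cre libraries, and a region was called gained when at least 2 libraries of a group had a peak there and no young WT Cre library did. The young EC-K4KO group gained 289 member regions (7.94%), the old WT Cre group 532 (14.6%) and the old EC-K4KO group 868 (23.8%), where 10.2%, 17.4% and 26.6% of all regions were gained. No member region was lost in any group, where 0.00108%, 0.00108% and 0.00432% of all regions were. With equal lists of 6157 peaks, members gained 17, 21 and 20 regions, 8.46%, 10.4% and 9.95% of their regions, and all regions 6.99%, 7.30% and 8.30%. A peak in all 7 other libraries and none in young WT Cre was found for 91 member regions (2.50%) and 3.94% of all regions. A peak in all 4 old and no young library was found for 108 (2.97%) and 3.81%, and in all 5 EC-K4KO and no WT Cre library for 0 and 0.0195%.

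**Figure D4:**
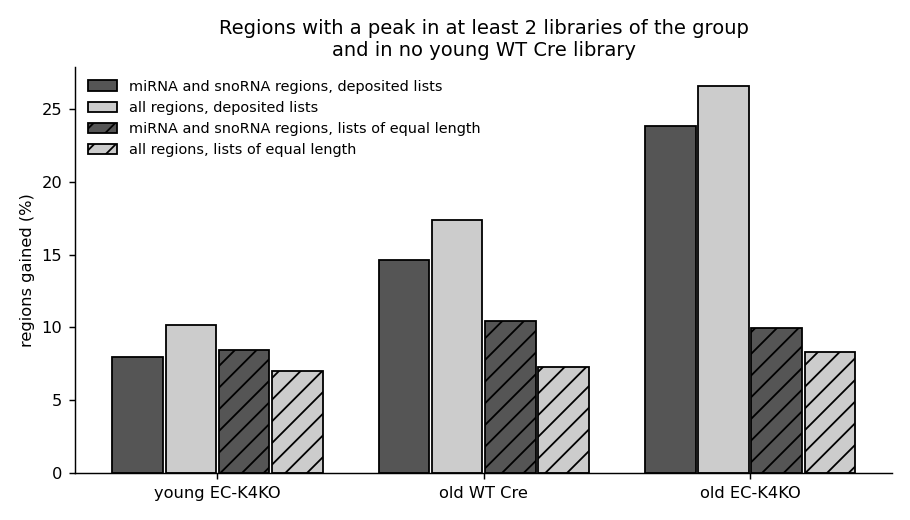
Share of regions (%) with a peak in at least 2 libraries of a group and in no young WT Cre library, for member and all regions, in the deposited lists and in lists of equal length. Members stand at 7.94% to 23.8% in the deposited lists and at 8.46% to 10.4% in lists of equal length.

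The best-ranked gained regions with a peak in every library of the group were, in young EC-K4KO, Mir669m-2, Mir2137, Mir23a, Mir193b and Mir3089 (chr2:30690223-30690787). Mir669m-2 belongs to a multicopy family of near-identical genes, so its name is uncertain. In old WT Cre they were Snord104, Mir6999, Mir8104, Mir193b and Mir7075. In old EC-K4KO they were Mir8104, Snord104, Mir7039, Mir6999 and another Mir3089 region (chr2:30758314-30758981). The Mir7075 region lay over the start of Terf2 and carried the name of the miRNA in 1 of its 7 libraries. Each of the 11 regions had a peak in all 7 libraries outside young WT Cre. Mir193b (chr16:13436985-13438318), at -12169 bp and intergenic, stood at percentile 17.5, 11.3 and 11.8 in young EC-K4KO, 7.18 and 9.11 in old WT Cre and 12.2 and 18.0 in old EC-K4KO. Mir6999, in intron 1 of Dgkz, stood at 38.8, 21.5 and 28.1, then 4.18 and 7.68, and 5.75 and 7.24.

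**Figure D5:**
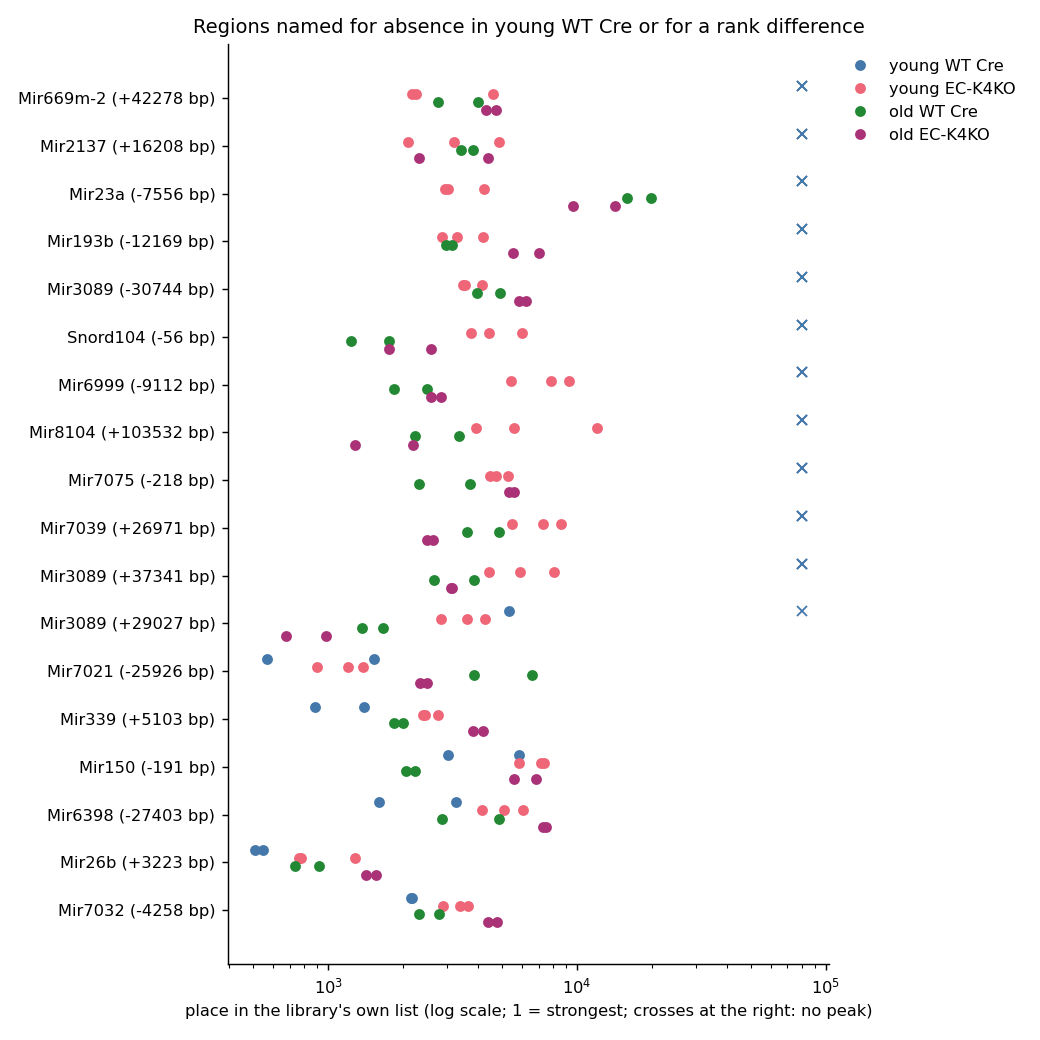
Place in each library's own list (x axis, log scale, 1 the strongest) of the regions chosen for a gain or for a rank difference, 1 point per library, with crosses at the right for no peak. Regions chosen for a gain have crosses for young WT Cre only.

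For the ranks, 7935 regions with a peak among the 6157 strongest in at least 2 lists were tested, 137 of them members, by a two-sided exact permutation test of log2 rank within strata over 60 arrangements, adjusted (Benjamini-Hochberg) over all 7935. Absent peaks and all peaks beyond place 6157 were set just after place 6157, so these log2 rank differences are of cut ranks. The smallest p it allows is 0.0167. By age, 25 members (18.2%) reached it, where 14.4% of all regions did, 14 of them stronger (10.2%, against 9.0% of all) and 11 weaker in old ECs (8.03%, against 5.36% of all). No region passed an adjusted p of 0.05, and the smallest adjusted p was 0.116. With a smallest p of 0.0167, passing needs far more than 14.4% of regions to reach it. So this result does not show that no region differs. By genotype, 11 members (8.03%) reached it, where 4.31% of all did, and all 11 were weaker in EC-K4KO, where 2.5% of all regions were weaker and 1.81% stronger. Ranked by fold enrichment instead, 5 members (2.87%) reached it, where 3.03% of all did. The smallest adjusted p by genotype was 0.387, under the same limit. At an unadjusted p under 0.05 there were 36 members by age (26.3%, against 21.6% of all) and 16 by genotype (11.7%, against 6.97% of all). With percentiles of the whole lists, members at the smallest p lay below all regions, at 35.8% against 42.3% by age and 16.1% against 22.2% by genotype. The members with the largest genotype differences were Mir339 (1.13 log2 rank units), Mir150 (0.99), Mir6398 (0.93), Mir26b (0.82) and Mir7032 (0.73), all weaker in EC-K4KO. With percentiles of the whole lists these log2 differences were 0.18 for Mir339, 0.16 for Mir150 and 0.12 for Mir6398, and Mir26b (-0.12) and Mir7032 (-0.22) turned direction. Those by age were Mir3089 (-2.02), Snord104 (-1.59), Mir8104 (-1.39) and Mir6999 (-1.33), stronger in old, and Mir7021 (1.73), weaker in old. With percentiles of the whole lists these were -3.53, -3.26, -3.21, -3.15 and 0.25, in the same order. Of those stronger in old, only Mir3089 had a peak in young WT Cre, in replicate 2. This Mir3089 region (chr2:30749994-30750443) is another than the gained regions of that name.

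In limma on the 81 member regions open in all 9 libraries, with age and genotype as terms, 17 (21.0%) differed by age at an adjusted p under 0.05, 8 stronger and 9 weaker in old. Of the 4872 regions 15.6% did, 423 stronger and 338 weaker. By genotype 0 did, of the members and of all. Beside Mir30d and Snord12, those that rose with age included Mir7012 (-1.10 ± 0.20 (SE), adjusted p = 0.0125) and Mir6908 (-1.01 ± 0.18 (SE), adjusted p = 0.0123). The region named for Mir7012 lay 22794 bp from that miRNA, over the start of the gene Gatad2b. Beside Mir99b, those that fell included Mir1938, over the start of Ifrd1 (0.97 ± 0.14 (SE), adjusted p = 0.00624), and Mir26b (0.64 ± 0.17 (SE), adjusted p = 0.0428). By the exact permutation test, with 60 arrangements and the same limit, no region passed an adjusted p of 0.05 for a genotype effect that differed between ages. At an unadjusted p under 0.05 there were 3 members (2.19%) and 4.27% of all.

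Genes that make and use these RNAs were read from their promoter peaks. Of 18 miRNA processing factors, 8 had a promoter peak by name in all 9 libraries, among them Drosha, its partner Dgcr8, the export factor Xpo5 and the helicase Ddx17. Dicer1 had none in young WT Cre and stood at percentile 17.4, 15.2 and 14.6 in young EC-K4KO, 5.40 and 8.98 in old WT Cre and 4.62 and 4.94 in old EC-K4KO. Gains against young WT Cre numbered 1, 1 and 2 in the young EC-K4KO, the old WT Cre and the old EC-K4KO libraries, where 23.5%, 27.2% and 30.7% of 10823 gene promoters were gained. Of 15 snoRNP proteins and assembly factors 1, Ruvbl2, was present in all 9, and 3, 4 and 4 were gained. The number named was 3 and 6 in young WT Cre, 9, 9 and 11 in young EC-K4KO and 11 or 12 in the old libraries. The lists were also shortest in young WT Cre and longest in the old libraries, and a rise beyond list length was not tested. Of 18 snoRNA host genes 9 were named, Snhg5 in all 9 libraries, and 4, 5 and 5 were gained. With any peak region over the gene's start counted instead of the name, 12, 2 and 6 genes of these lists were present in all 9 libraries.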

How the data were processed

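Omni-ATAC-seq was done on brain endothelial nuclei in 9 libraries. Per the study's methods the authors trimmed reads, aligned them to mm10 with Bowtie2, removed duplicates and low-quality alignments and called broad peaks in each library alone with MACS2, and per the file headers HOMER named the nearest gene and class. The deposited values are a score, the fold enrichment ratio and the −log10 of p and of q (column by column); no read counts or depth were used here. The score was 10 times −log10 q, cut to a whole number, in over 99.9% of peaks. No interval on a share of reads can be given from peak lists.

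Peaks were taken from the names, ranked in each list by −log10 p, and merged over all libraries where they shared at least 1 bp. Python 3.11.15, pandas and numpy, and limma 3.58.1 in R 4.3.3, were used. Rank differences were tested by exact stratified permutation, and by limma on log2 place of the shared regions, both tested on simulated data. Named regions were the 10 best in all 9 libraries, the 5 best gained in each group, the 5 with the largest difference among those at the smallest p by age and by genotype, and the genes of fixed lists. Members and lists were chosen with earlier results of these data known. Mature, promoter and genome sequences are from RefSeq GRCm38.p6, starts from GENCODE M21. The counts of promoters by gene start were chosen after the data were seen. Alternatives were other ranking, list length, q limits, overlap, a replicate block and leaving out each library.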

Additional observations from a re-analysis of the deposited data

How the results depend on the processing

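The share of members in equally long lists kept its sign by genotype under every alternative run, and by age under all but ranking by fold enrichment (0.0731 percentage points). Leaving out a library gave -0.175 to -0.00695 points by age and -0.264 to -0.113 by genotype. Gained member regions numbered 17, 21 and 20 in lists cut to equal length, and 92 in young EC-K4KO when every library had to hold the peak. Leaving out a library gave 105 to 356 in young EC-K4KO, 531 to 1395 in old WT Cre and 867 to 1375 in old EC-K4KO, where a group of 1 library left needs 1 peak. Counts moved by over 1.5 times without young EC-K4KO replicate 2 (113) or 3 (105), old WT Cre replicate 1 (844) or 2 (1395), and old EC-K4KO replicate 2 (1375).

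Members under an adjusted p of 0.05 by age numbered 49 with the rank percentile of the whole list and absent peaks at 100, and 17 with limma (21.0%, against 15.6% of all). At the smallest p there were 49 by age with the percentile (35.8%, against 42.3% of all) and 16 in regions open in all 9 libraries (19.8%, against 14.6%). By genotype there were 22 with the percentile (16.1%, against 22.2%) and 5 by fold (2.87%, against 3.03%). Leaving out a library gave 28 to 70 by age and 13 to 18 by genotype, where the smallest p is 0.0333 to 0.0556. The counts of 0 under an adjusted p of 0.05 in those runs say nothing of stability. At 0.0556 none can pass, and at 0.0333 or 0.0417 too few regions reached the smallest p for any to pass. By age the count moved over 1.5 times without young WT Cre replicate 1 (70) and young EC-K4KO replicates 1 (42), 2 (39) and 3 (41). By genotype it did so without young WT Cre replicates 1 and 2 (18 each) and without young EC-K4KO replicates 1 and 3 and old WT Cre replicate 2 (17 each). With the percentile the genotype difference reversed for Mir26b (-0.12) and Mir7032 (-0.22). The cause was not tested.

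The replicate block gave the main share differences again, -0.0731 points by age and -0.162 by genotype. It averages the same libraries but for young EC-K4KO replicate 3, so this is no check of those differences. In limma the block gave 12 members by age (14.8%, against 11.4% of all), 9 of them among the 17 called without it. Same-numbered libraries correlated at 0.0803, 0.0445, 0.107 and 0.107 in their deviations from group means. In a group of 2 libraries these deviations mirror each other, so the values are tied. They cannot decide whether the numbers pair the samples. Of the summary values recomputed with all libraries, 38 stayed within the replicate spread or within 1.5 times the count, and 12 moved. With a library left out, 67 stayed and 14 moved. A count of 0 that stayed 0 was taken as unchanged. Shares moved within the replicate spread, to -0.00833 points by age in the 1000 strongest peaks and -0.0563 by genotype at q under 0.01. Depth is unknown, and short lists limit what can be called absent in young WT Cre.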
